A study of Homo sapiens with 12 samples.

Results

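MV3 melanoma cells kept for 24 h in medium conditioned by M1 macrophages were set against MV3 cells kept for 24 h in fresh medium, and the difference was described across all genes. The members were chosen by their labels: the 3 libraries of cells in M1 medium (M1) and the 3 libraries of cells in fresh, unconditioned RPMI medium (Ctrl), 6 of the 12 samples of the series. MV3 is an established human melanoma line isolated from a lymph node metastasis. In M1, the medium came from the human monocyte line THP-1, differentiated to macrophages with the phorbol ester PMA and then polarized with lipopolysaccharide (LPS) and interferon-gamma (IFNγ). The other 6 libraries, used for comparison, were MV3 cells in medium from THP-1 macrophages that had received PMA alone (M0, n = 3) or PMA followed by interleukin 4 and interleukin 13 (M2, n = 3). All cells were grown in medium with 10% serum and held for 3 h in medium with 1% serum before the exposure. Ctrl medium had seen no macrophages, so the M1 against Ctrl difference holds the effect of conditioning as such together with that of polarization, and any PMA, LPS or IFNγ carried over in the medium was not measured. Nothing in the labels says that the replicates were separate cultures. The p-values therefore measure spread among these libraries, possibly technical spread.

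Macrophages exposed to LPS and IFNγ release tumour necrosis factor, interleukin 1, interferons and chemokines. In a cell that receives them, tumour necrosis factor and interleukin 1 free the transcription factor NF-kB from its inhibitors, whereas interferons act through JAK kinases, and the antiviral genes that follow carry interferon-stimulated response elements in their promoters. A cell short of amino acids, or with misfolded protein in its endoplasmic reticulum, slows protein synthesis and makes the transcription factor ATF4, which turns on genes for amino acid uptake, amino acid synthesis and the charging of transfer RNA. The genes for DNA replication and mitosis are switched by the E2F and DREAM complexes and are low in cells that have left the cell cycle.

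Reads were counted per gene. The 6 libraries held 28706025 to 42921242 reads, and 14088 of 58288 gene identifiers had enough reads in the 12 libraries to be tested. A gene with enough reads in M1 alone passes through M1 and can only be called higher. This limits the counts of lists in which only part of the genes was tested. Levels are CPM, reads of a gene scaled to a common library size, on TMM-scaled library sizes, given as mean ± SD with n = 3 per group, and a gene is called where edgeR's quasi-likelihood test gave a Benjamini-Hochberg adjusted p under 0.05 over all 14088 genes. A count of 0 in a single library allows up to 0.0699 to 0.105 CPM among these 6. Of 20 melanocyte lineage genes, 13 had too few reads to be tested, and SOX10, TYR and MLANA had 0 reads in both groups. Among the 7 tested, 3 were called higher and 1 lower, where 35.2% of all genes were called higher and 35.0% lower. With 7 genes, these counts are no result about the list. Some were well expressed, such as GPR143 (M1 mean 69.0 CPM, Ctrl mean 70.1 CPM) and GPNMB (M1 mean 57.9 CPM, Ctrl mean 42.1 CPM). The whole melanocyte list added up to 194.6 ± 8.0 CPM for M1, against 171.4 ± 7.5 CPM for Ctrl. The 20 genes of the dedifferentiated melanoma state summed to 4368 ± 62.4 CPM in M1 and 5493 ± 771 CPM in Ctrl. Of 20 macrophage markers 18 were not tested and the sum over all 20 was 1.96 ± 0.0909 CPM in M1 and 1.91 ± 0.0508 CPM in Ctrl. Of the defining macrophage markers, TYROBP had 0 reads in both groups, SPI1 1 in M1 and 0 in Ctrl, CSF1R 8 in M1 and 2 in Ctrl, CD14 4 in M1 and 21 in Ctrl, and PTPRC 2 in M1 and 9 in Ctrl. These 5 had few reads in both groups. The 2 markers tested were both called: the scavenger receptor gene MSR1 was higher in M1 (79 reads, against 19 in Ctrl) and CD33 lower (44 reads, against 77 in Ctrl), a call lost under DESeq2 and without M1 replicate 1, M1 replicate 3 or Ctrl replicate 3, and their part in other results was not tested. In bulk RNA, fewer cells of one state and less RNA per cell cannot be told apart.

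Promoters of 4 genes are shown because they carry the elements known for 4 of the gene groups described here. Each is the member of its group with an element and the largest change. The sequences are RefSeq promoters on GRCh38.p14, 250 bases before to 50 bases after the start of transcription, on the strand of the gene, 5′ to 3′, with the element in capitals. IFI44L (chr1:78620198-78620497, plus strand) has 2 copies of an interferon-stimulated response element, searched as TTTC, 2 free bases and TTTC. TNFRSF9 (chr1:7940790-7941089, minus strand) has a kappa B element, searched as GGG, 2 free bases and TTTCC. CHAC1 (chr15:40953221-40953520, plus strand) has an amino acid response element of the C/EBP-ATF type, searched as TGATGNAA. E2F2 (chr1:23531184-23531483, minus strand) has 2 overlapping E2F elements, searched as TTTNGCGC. All were searched on both strands, so that the capitals may show the reverse complement.
IFI44L: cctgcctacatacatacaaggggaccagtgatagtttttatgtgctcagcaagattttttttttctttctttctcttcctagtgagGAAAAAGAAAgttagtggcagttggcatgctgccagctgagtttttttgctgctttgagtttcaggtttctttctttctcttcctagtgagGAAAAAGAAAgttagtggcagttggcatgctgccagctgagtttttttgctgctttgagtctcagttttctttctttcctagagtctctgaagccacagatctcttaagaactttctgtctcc
TNFRSF9: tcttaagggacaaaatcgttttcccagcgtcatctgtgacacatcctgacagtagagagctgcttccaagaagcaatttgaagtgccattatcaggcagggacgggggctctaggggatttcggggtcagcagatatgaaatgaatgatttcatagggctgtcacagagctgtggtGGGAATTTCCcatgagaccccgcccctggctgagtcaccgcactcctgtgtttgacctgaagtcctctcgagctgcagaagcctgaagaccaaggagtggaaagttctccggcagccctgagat
CHAC1: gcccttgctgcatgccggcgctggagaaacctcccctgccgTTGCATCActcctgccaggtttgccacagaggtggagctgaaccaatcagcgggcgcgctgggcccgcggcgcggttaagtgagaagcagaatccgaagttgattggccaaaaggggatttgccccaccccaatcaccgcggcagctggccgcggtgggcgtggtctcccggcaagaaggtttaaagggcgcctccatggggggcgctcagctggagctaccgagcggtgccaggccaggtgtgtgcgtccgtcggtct
E2F2: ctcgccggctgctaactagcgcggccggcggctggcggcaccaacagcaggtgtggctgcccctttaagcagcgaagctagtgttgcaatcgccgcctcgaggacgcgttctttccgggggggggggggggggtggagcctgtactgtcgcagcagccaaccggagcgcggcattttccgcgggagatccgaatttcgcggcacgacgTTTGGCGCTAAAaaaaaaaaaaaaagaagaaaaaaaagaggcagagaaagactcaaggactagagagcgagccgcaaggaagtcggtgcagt

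Among 49 interferon effector genes tested, 41 had a RefSeq promoter and 28 of these (68.3%) held the interferon-stimulated response element, against 2.90% of the promoters of all protein-coding genes tested. The kappa B element stood in 10 of 25 promoters of NF-kB pathway genes (40%), against 2.21%. The E2F element stood in 14 of 32 promoters of DNA replication genes (43.8%), against 3.08%. For the ATF4 response list 78.6% of genes had a promoter in the table, too few for a share. In all, 6 elements were searched. The sterol response element stood in 1 of 18 cholesterol synthesis promoters. In genes at least 2-fold higher, the gamma-activated sequence stood in 66 of 1055 promoters and the interferon-stimulated element in 74, against 620 and 281 of 9696 over all protein-coding genes tested. In switched-on genes the interferon-stimulated element stood in 0 of 23. These sets too had few promoters. These genes are known for such elements, and a match is a run of letters, not a bound site.

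M1 medium changed the level of most genes that the cells expressed. Of 14088 genes, 9892 (70.2%) were called, 4961 higher (35.2%) and 4931 lower (35.0%), and the 3 M1 and 3 Ctrl values did not overlap for 10046 genes (71.3%). Most changes were small: 66.4% of the called genes moved by less than 2-fold, and the median absolute log2 fold change was 0.50. The median log2 fold change was -0.0038. At 2-fold or more, 1791 genes (12.7%) were higher and 1536 (10.9%) lower. Which direction held more genes turned with the scaling: with none beyond library totals, 4388 genes were higher and 5539 lower, and 1581 and 1758 at 2-fold or more. The larger the change, the more it lay on the higher side: 643 genes were at least 4-fold higher and 342 at least 4-fold lower, 334 and 95 at least 8-fold, 120 and 13 at least 32-fold, and 47 and 2 at least 128-fold. Genes with a mean under 1 CPM were called less often (49.2% of 2183) than genes at 100 CPM or more (78.7% of 2548), but passed 2-fold more often (23.0% higher and 16.5% lower, against 9.66% and 6.99%). Of 11842 protein-coding genes 73.7% were called, of 649 antisense transcripts 52.5%, and of 579 long intergenic RNAs 58.2%.

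**Figure D1:**
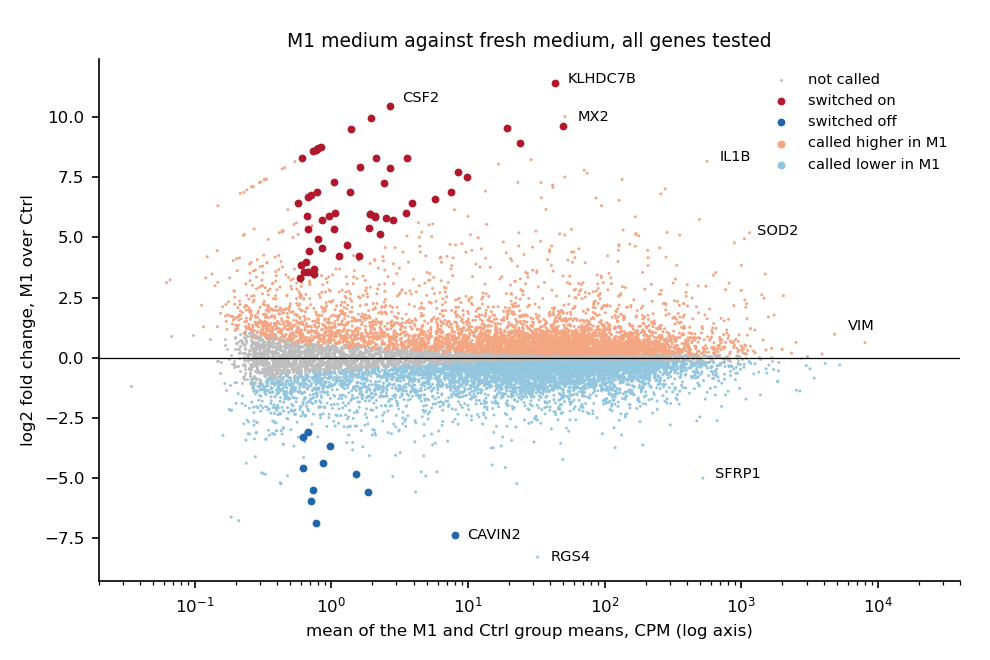
Each point is 1 of 14088 genes, with the mean of the M1 and Ctrl group means in CPM on a log axis and the log2 fold change of M1 over Ctrl on the vertical axis. Orange and light blue points were called higher and lower, and large points are the 57 genes switched on and the 11 switched off. The cloud is wider above 0 than below it.

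A large share of the messenger RNA lay in genes that changed. On TMM-scaled CPM, genes called higher held 52.2% of the total in M1 and 29.6% in Ctrl, and genes called lower held 29.2% in M1 and 45.7% in Ctrl. Genes called higher by at least 2-fold held 16.4% in M1 and 4.68% in Ctrl, and genes called lower by at least 2-fold held 3.55% in M1 and 10.6% in Ctrl. The 4196 genes that were not called held 21.2% in M1 and 21.3% in Ctrl. These shares follow from the calls and carry no test. Library by library, genes called higher by at least 2-fold held 16.6%, 16.3% and 16.4% in the M1 libraries, against 4.86%, 4.62% and 4.57% in the Ctrl libraries.

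**Figure D2:**
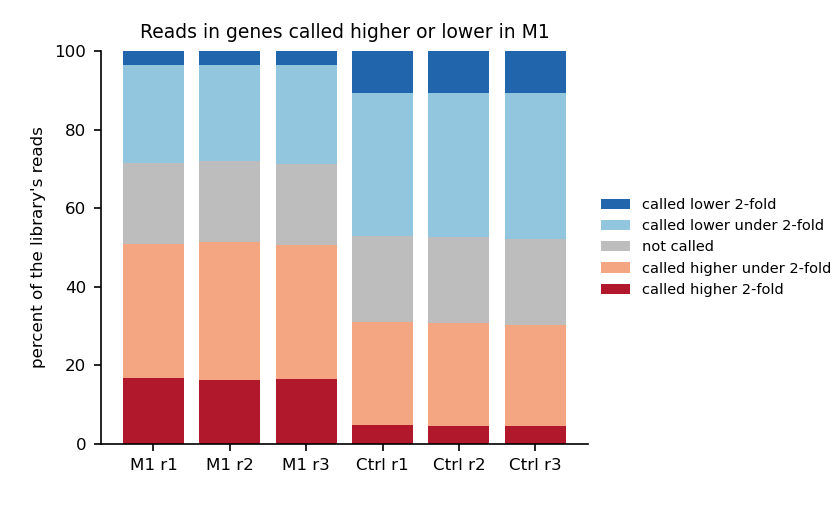
Stacked bars give the percent of each library's reads that fell in genes called higher by 2-fold or more, called higher by less, not called, called lower by less and called lower by 2-fold or more. The lowest block, of genes called higher by at least 2-fold, averages 16.4% ± 0.19 (SD) in the 3 M1 libraries and 4.68% ± 0.15 in the 3 Ctrl libraries.

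The gain was spread over many genes, and the 10 largest rises held 10.5% of the CPM gained by all genes called higher. VIM, which encodes the intermediate filament vimentin, gained most in absolute level, at 9156, 10380 and 9714 CPM in the M1 libraries, against 6518, 6168 and 6222 CPM in the Ctrl libraries. All 3 M1 values lay above all 3 Ctrl values, although the change was only log2 0.63 ± 0.06 SE, adjusted p = 2.86e-07. FN1, the fibronectin gene, stood at 6381 ± 149.5 CPM in M1, against 3251 ± 25.6 CPM in Ctrl. STC2, a secreted glycoprotein gene known as an ATF4 target, stood at 3486 ± 319.6 CPM in M1, against 584 ± 25.3 CPM in Ctrl, and WARS, the tryptophanyl-tRNA synthetase gene, which responds both to interferon and to ATF4, at 2747 ± 219 CPM in M1, against 247 ± 5.68 CPM in Ctrl. SERPINB2, the gene of plasminogen activator inhibitor 2, rose to 2238 ± 419.6 CPM in M1, against 61.3 ± 4.43 CPM in Ctrl. TXNRD1, RND3, SOD2, HSPA5 and ESM1 made up the rest of the 10 largest gains. The 10 largest losses included genes of protein folding, glycolysis and the cytoskeleton. The chaperone gene HSP90AA1 fell to 1490 ± 144 CPM in M1, against 3875 ± 120.5 CPM in Ctrl, HSPA8 to 1432 ± 290.4 CPM in M1, against 3638 ± 54.3 CPM in Ctrl, the glycolytic genes GAPDH and LDHA by 0.84 and 1.54 on the log2 scale, and TUBB, ENO1, ACTB, AXL, SPARC and SFRP1 completed the 10.

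Genes were described as switched on where they were called, every Ctrl library was under 0.2 CPM and every M1 library was at 1 CPM or more. This held for 57 genes, 43 of them protein coding, and 9 had 0 reads in all 3 Ctrl libraries. With a Ctrl limit of 0.1 CPM it held for 30. Together they rose to 494, 424 and 499 CPM in the M1 libraries, against 3.63, 2.55 and 2.88 CPM in the Ctrl libraries. The levels chose these genes, so they are given as a description. A further 228 called genes lay just outside, with every Ctrl library under 0.5 CPM and every M1 library at 0.5 CPM or more. Most switched-on genes reached only a low level, with a median of 2.51 CPM in M1, and 8 genes reached 10 CPM.

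KLHDC7B (chr22:50545891-50551023, plus strand, GRCh38), a kelch-domain gene, showed the largest fitted fold change of all genes that reached 1 CPM. It had 91.6, 68.6 and 101.1 CPM in the M1 libraries, against 0.0228, 0 and 0.0625 CPM in the Ctrl libraries. That was 9461 reads in M1 and 3 in Ctrl, a ratio of 3103 (exact 95% counting interval 1062 to 15050). INHBE, which encodes the activin beta E subunit, had 108, 86.7 and 104 CPM in the M1 libraries, against 0.0913, 0.101 and 0.188 CPM in the Ctrl libraries. C5AR1, the receptor for complement fragment C5a, had 46.8, 50.05 and 47.8 CPM in the M1 libraries, against 0.0685, 0.06698 and 0.156 CPM in the Ctrl libraries. The levels chose these 3 genes, so the gap between the groups is no result.

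The switched-on genes differed in their level in the other conditioned media. In 15 of the 57, the M0 and M2 means were both under 0.2 CPM, and in 16 both were 1 CPM or more. A mean under 0.2 CPM does not show that a gene was not raised: of the 15, SERPINA1 and FDCSP were called higher in M0 than in Ctrl, and SLC7A2, ICAM4, SERPINA1 and MSC-AS1 higher in M2 than in Ctrl. The first set held TRIM22, an antiviral ubiquitin ligase, CTSS, the antigen-processing protease cathepsin S, CSF2, the gene of the growth factor GM-CSF, the cationic amino acid transporter SLC7A2, the protease inhibitor SERPINA1, the red cell adhesion molecule ICAM4, and also AMTN, DNAH17, PDGFRL, FDCSP, RCSD1, GBP1P1, MSC-AS1, AL356234.2 and AC083837.1. CSF2 had 577 reads in M1 and 0 in Ctrl, at least 189-fold higher against a floor of 3 reads over the group, with 0.0310 CPM in M0 and 0.0210 CPM in M2. SLC7A2 had 422 reads and 0 reads, at least 138-fold higher. CTSS stood at 16.7 ± 1.68 CPM in M1, against 0.0807 ± 0.0469 CPM in Ctrl, with 0.137 CPM in M0 and 0.0448 CPM in M2. The pseudogene GBP1P1 had 129 reads in M1 and 0 reads in M0, M2 and Ctrl, at least 42.3-fold higher than Ctrl. Its reads may be shared with near-identical GBP1, which stood at 294 CPM in M1.

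The other set, all 16 called higher than Ctrl in M0 and in M2, held INHBE, KLHDC7B, C5AR1, the homeobox gene HOXB9, GDF15, a stress-induced cytokine of the TGF-beta family, the fucosyltransferase gene FUT1, ANKFN1, GABRG1, IGSF10, SPNS3, PTP4A3, ESRP1, CBSL, which is near-identical to CBS and may share its reads, and 3 non-coding RNAs. INHBE stood at 99.7 CPM in M1, 50.0 CPM in M0 and 104 CPM in M2, all against 0.127 CPM in Ctrl. GDF15 had 587 reads in M1 and 2 in Ctrl, a ratio of 289 (exact 95% counting interval 79.6 to 2390), and did not differ beyond the test between M1 and M0 (adjusted p = 0.916). Of the 57 genes, 48 were called higher in M1 than in M0 and 37 higher than in M2, where 25.5% and 15.9% of all genes were. A high M1 level chose these genes, so nothing is read from those counts. HOXB9 had 13.9, 15.04 and 15.6 CPM in the M1 libraries, against 0.137, 0.168 and 0.0625 CPM in the Ctrl libraries. Its levels chose HOXB9, and the other 8 HOXB genes tested ranged from log2 -0.83 to 0.76.

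**Figure D3:**
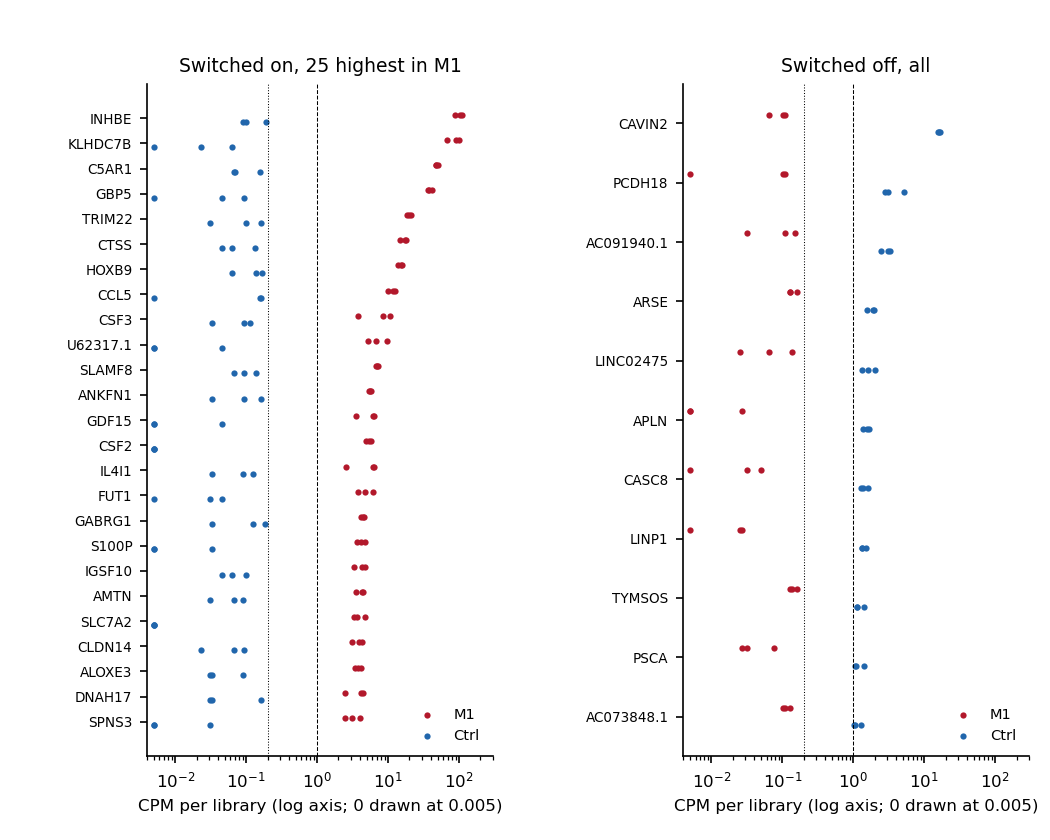
CPM in each M1 library (red) and each Ctrl library (blue) on a log axis, for the 25 switched-on genes with the highest M1 level on the left and the 11 switched-off genes on the right. The dotted line is 0.2 CPM and the dashed line 1 CPM, the limits that chose the genes. Values of 0 are drawn at 0.005.

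Fewer genes were switched off. Every M1 library was under 0.2 CPM and every Ctrl library at 1 CPM or more in 11 called genes, 5 of them protein coding, and 196 lay just outside. With an M1 limit of 0.1 CPM there were 4, and with limits of 0.5 and 2 CPM 23. Together they had 0.888, 0.640 and 0.955 CPM in the M1 libraries, against 35.6, 34.1 and 32.3 CPM in the Ctrl libraries. CAVIN2 (chr2:191834302-191847255, minus strand), which encodes a coat protein of caveolae, had the highest Ctrl level of the 11. It had 0.101, 0.0640 and 0.109 CPM in the M1 libraries, against 16.5, 16.1 and 15.4 CPM in the Ctrl libraries, and it overlaps AC098617.1 on the other strand. Its 10 reads in M1 and 1697 in Ctrl gave a ratio of Ctrl over M1 of 172 (exact 95% counting interval 93.5 to 360). APLN, the gene of the peptide hormone apelin, had 1 read in M1 and 163 in Ctrl, a ratio of 166 (exact 95% counting interval 29.3 to 6582). The others were PCDH18, a protocadherin gene, ARSE, PSCA and the non-coding RNAs CASC8, LINP1, LINC02475, TYMSOS, AC091940.1 and AC073848.1.

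The 15 largest falls included 5 signalling and matrix genes that are not among the 11. RGS4, which shortens G protein signals, fell more than any other gene at 1 CPM or more. It had 0.127, 0.160 and 0.327 CPM in the M1 libraries, against 71.5, 62.6 and 59.5 CPM in the Ctrl libraries. SFRP1, a secreted inhibitor of Wnt ligands, had 28.9, 34.9 and 31.5 CPM in the M1 libraries, against 1179, 946 and 924 CPM in the Ctrl libraries. CPA4, a carboxypeptidase gene, stood at 0.1598 ± 0.109 CPM in M1, against 8.12 ± 1.56 CPM in Ctrl, ANGPT1, the angiopoietin 1 gene, at 0.172 ± 0.0682 CPM in M1, against 5.47 ± 0.679 CPM in Ctrl and TNS1, the tensin 1 gene of focal adhesions, at 1.499 ± 0.621 CPM in M1, against 36.1 ± 1.32 CPM in Ctrl. The largest falls were taken among genes whose M1 and Ctrl libraries did not overlap, so the separation of the groups is no result. RGS4 was also low in M0 and M2, at 1.17 and 0.770 CPM, and lower still in M1 (M1 over M0 log2 -2.51, adjusted p = 9.40e-06, and M1 over M2 log2 -1.90, adjusted p = 0.000445).

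Nearly all interferon response genes rose. Of 49 effector and sensor genes tested, 48 were called higher and 0 lower, 46 of them by at least 2-fold, with a median log2 fold change of 3.83. Of all genes 35.2% were higher and 35.0% lower, and 12.7% higher by at least 2-fold. The exception, ZC3HAV1, stood at 133 ± 19.99 CPM in M1, against 115 ± 11.3 CPM in Ctrl (adjusted p = 0.319). MX2, a dynamin-like antiviral protein gene, had 98.2, 106 and 103 CPM in the M1 libraries, against 0.0228, 0.268 and 0.0313 CPM in the Ctrl libraries. OAS1, which makes the second messenger that activates RNase L, had 52.3, 62.02 and 59.3 CPM in the M1 libraries, against 0.1598, 0.234 and 0.188 CPM in the Ctrl libraries. No M1 value came near a Ctrl value in either gene. XAF1, which encodes an antagonist of inhibitors of apoptosis, rose to 141 ± 2.79 CPM in M1, against 0.648 ± 0.113 CPM in Ctrl (log2 7.78 ± 0.13 SE, adjusted p = 5.60e-17), OAS2 to 267 ± 5.37 CPM in M1, against 1.57 ± 0.0987 CPM in Ctrl, IFI44L to 148 ± 8.54 CPM in M1, against 0.725 ± 0.153 CPM in Ctrl and the ubiquitin-like modifier ISG15 to 199.7 ± 53.7 CPM in M1, against 10.7 ± 2.398 CPM in Ctrl. ISG15 had 211, 141 and 247 CPM in the M1 libraries.

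The genes that carry the interferon signal moved less than their targets. Of 18 tested, 13 were higher and 1 was lower, with a median of 0.59, where 35.2% of all genes were higher and 35.0% lower. The transcription factor gene IRF7 was among those that rose (log2 4.13 ± 0.37 SE, adjusted p = 4.26e-10), at 25.5 ± 7.61 CPM in M1, against 1.46 ± 0.463 CPM in Ctrl. IRF3, which responds to sensors of foreign nucleic acid, was the gene that fell (log2 -1.11 ± 0.11 SE, adjusted p = 7.08e-08), and overlaps BCL2L12 on the other strand. It was also lower in M0 and M2 over the same Ctrl libraries, at log2 -0.88 and -0.95.

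Of 26 guanylate-binding protein and IFNγ-type genes 18 were tested. Of these 17 were higher and 0 lower, with a median of 3.17, where 35.2% of all genes were higher and 35.0% lower. GBP5 had 21 reads in M0, 12 in M2 and 5 in Ctrl, so it passed the filter through M1 alone and could only count as higher. GBP5, a GTPase of the inflammasome response, had 41.2, 37.1 and 36.9 CPM in the M1 libraries, against 0.0457, 0 and 0.0938 CPM in the Ctrl libraries, and GBP4 rose to 8.52 ± 0.358 CPM in M1, against 0.172 ± 0.0248 CPM in Ctrl. SOCS1, the feedback inhibitor of JAK kinases, was not called, at 0.846 ± 0.188 CPM in M1, against 1.102 ± 0.257 CPM in Ctrl (adjusted p = 0.184). Chemokine genes that IFNγ induces in many cell types, and IDO1, which encodes an enzyme that degrades tryptophan, had few reads: CXCL10 had 32 reads in the 3 M1 libraries, CXCL11 35, CXCL9 11 and IDO1 15, against 0 reads for each in Ctrl. These 4 genes did not pass the filter, and their levels were 0.108 to 0.326 CPM in M1.

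Antigen presentation by MHC class I rose and class II did not appear. Of 21 class I genes tested, 20 were higher, with a median of 1.69, where 35.2% of all genes were higher. HLA-B had 583, 671 and 634 CPM in the M1 libraries, against 48.6, 39.8 and 43.9 CPM in the Ctrl libraries, with the reservation that near-identical HLA genes share reads. TAP1, which carries peptides into the endoplasmic reticulum, rose to 172 ± 7.87 CPM in M1, against 16.3 ± 2.39 CPM in Ctrl and the immunoproteasome subunit gene PSMB9 to 32.3 ± 2.004 CPM in M1, against 3.13 ± 0.3295 CPM in Ctrl. The one gene that fell was CALR, a chaperone of the endoplasmic reticulum (log2 -0.68 ± 0.07 SE, adjusted p = 2.52e-06). Of 15 class II genes, only CTSS was tested; HLA-DRA had 0 reads in both groups, CIITA, the class II regulator, 8 reads in M1 and 4 in Ctrl, and CD74, the invariant chain, 25 in M1 and 6 in Ctrl.

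Genes of the NF-kB pathway rose unevenly. Of 29 tested, 24 were higher and 4 lower, with a median of 1.35, where 35.2% of all genes were higher and 35.0% lower. SOD2, mitochondrial superoxide dismutase, had 2131, 2008 and 1977 CPM in the M1 libraries, against 69.5, 65.6 and 63.95 CPM in the Ctrl libraries. TRAF1, a signalling adapter, rose to 35.1 ± 2.79 CPM in M1, against 1.25 ± 0.1398 CPM in Ctrl, the receptor gene TNFRSF9 to 5.64 ± 0.752 CPM in M1, against 0.224 ± 0.09298 CPM in Ctrl, and the feedback inhibitors TNFAIP3 and NFKBIA to 242 ± 7.04 CPM in M1, against 10.98 ± 0.468 CPM in Ctrl and to 116 ± 1.98 CPM in M1, against 21.1 ± 0.8699 CPM in Ctrl. The 4 that fell act upstream of NF-kB. They were the receptor TNFRSF1A (log2 -0.44 ± 0.10 SE, adjusted p = 8.88e-05), the adapter TRAF2 (log2 -0.49), the kinase IKBKB (log2 -0.36) and the kinase of the non-canonical branch MAP3K14 (log2 -2.10 ± 0.15 SE, adjusted p = 3.68e-10). MAP3K14 had 5.96, 5.25 and 5.95 CPM in the M1 libraries, against 20.1, 25.96 and 27.9 CPM in the Ctrl libraries, and the groups did not overlap.

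Secreted inflammatory proteins were among the largest rises. Of 28 cytokine genes 16 were tested, and 14 of these were higher and 0 lower (median 4.16, which did not move with CSF2 set at its bound). Of 18 chemokine genes 8 were tested, and 7 of these were higher and 0 lower (median 3.90). Of all genes 35.2% were higher and 35.0% lower. CSF2 had 2 reads in M0, 2 in M2 and 0 in Ctrl. It passed the filter through M1 alone, so it could only count as higher. IL1B had 1205, 1017 and 1139 CPM in the M1 libraries, against 4.29, 3.42 and 3.97 CPM in the Ctrl libraries, and IL1A rose to 83.1 ± 14.7 CPM in M1, against 0.600 ± 0.145 CPM in Ctrl. Both encode interleukin 1, and every M1 library lay far above every Ctrl library in both genes. CXCL8, the neutrophil chemoattractant interleukin 8, had 1121, 827 and 960.2 CPM in the M1 libraries, against 18.9, 17.6 and 17.8 CPM in the Ctrl libraries, CCL5 rose to 11.3 ± 1.32 CPM in M1, against 0.105 ± 0.0913 CPM in Ctrl and CXCL2 to 24.03 ± 4.06 CPM in M1, against 1.04 ± 0.0243 CPM in Ctrl. CSF3, the gene of G-CSF, was switched on as well, but varied between M1 libraries, with 10.6, 3.81 and 8.54 CPM in the M1 libraries, against 0.114, 0.0335 and 0.0938 CPM in the Ctrl libraries. TNF itself had 4 reads in M1 and 1 in Ctrl.

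Other receptors and effectors of inflammation followed. Of 9 complement genes tested, 7 were higher and 0 lower (median 2.10), and C1S, a protease of the first complement component, had 99.3, 116 and 89.95 CPM in the M1 libraries, against 0.662, 0.268 and 0.688 CPM in the Ctrl libraries. C3 stood at 14.3 ± 3.23 CPM in M1, against 0.528 ± 0.158 CPM in Ctrl, and CFB had 48 reads in M1 and 1 in Ctrl. The leukocyte adhesion receptor ICAM1 rose to 558 ± 18.98 CPM in M1, against 15.1 ± 2.46 CPM in Ctrl. Among caspases and death receptors, 13 of 17 were higher and 1 lower, FADD. The complement and caspase counts are read against 35.2% higher and 35.0% lower over all genes. Among those higher were AIM2, a DNA sensor of the inflammasome, at 3.91 ± 0.252 CPM in M1, against 0.232 ± 0.0612 CPM in Ctrl and CASP4 at 158 ± 11.01 CPM in M1, against 25.8 ± 1.46 CPM in Ctrl. Among checkpoint ligands 5 of 12 were higher and 2 lower (CD47 and MICA), near the 35.2% higher of all genes, with PDCD1LG2, which encodes PD-L2, at 78.4 ± 5.54 CPM in M1, against 26.2 ± 2.68 CPM in Ctrl.

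A second block of rises was metabolic. Of 28 genes of the ATF4 amino acid response, 27 were higher and 0 lower, 26 by at least 2-fold, with a median of 3.31. CHAC1, which degrades glutathione, had 73.8, 54.5 and 76.2 CPM in the M1 libraries, against 0.708, 0.536 and 0.782 CPM in the Ctrl libraries. ASNS, asparagine synthetase, rose to 10.6 ± 1.36 CPM in M1, against 0.308 ± 0.123 CPM in Ctrl. ATF5 was the one gene not called, at 68.3 ± 1.73 CPM in M1, against 74.2 ± 6.55 CPM in Ctrl (adjusted p = 0.212). Of 19 amino acid transporters 16 were tested, and 14 of these were higher and 1 lower, SLC36A4. Their median was 1.57, which did not move with SLC7A2 set at its bound. SLC7A2 had 1 read in M0 and 3 in M2, so it passed the filter through M1 alone and could only count as higher. Both lists are read against 35.2% higher and 35.0% lower over all genes. SLC1A4, a neutral amino acid transporter, rose to 78.8 ± 1.92 CPM in M1, against 3.11 ± 0.6499 CPM in Ctrl and the glycine transporter SLC6A9 to 115 ± 15.9 CPM in M1, against 6.397 ± 0.633 CPM in Ctrl.

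Aminoacyl-tRNA synthetase genes split. Of 20 tested, 14 were higher and 6 lower (median 0.74), where 35.2% of all genes were higher and 35.0% lower. WARS, with 2556, 2986 and 2699 CPM in the M1 libraries, against 240.4, 249.5 and 251 CPM in the Ctrl libraries, GARS (log2 2.40 ± 0.02 SE, adjusted p = 1.47e-14) and AARS (log2 2.02 ± 0.06 SE, adjusted p = 2.30e-13) led, whereas FARSA (log2 -1.06 ± 0.19 SE, adjusted p = 7.16e-07), FARSB, HARS, KARS, QARS and VARS fell. Genes of the unfolded protein response, read against the same shares of all genes, had 13 of 20 higher, 2 lower (SDF2L1 and CALR) and a median of 0.81. DNAJB9 and HERPUD1, which assist the disposal of misfolded proteins, rose to 77.7 ± 2.93 CPM in M1, against 6.41 ± 0.597 CPM in Ctrl and to 392 ± 29.2 CPM in M1, against 47.3 ± 2.64 CPM in Ctrl, and the chaperone BiP (HSPA5) to 2693 ± 51.6 CPM in M1, against 785 ± 127 CPM in Ctrl.

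Cell cycle genes fell. All 34 mitosis genes tested were lower, each by at least 2-fold, with log2 fold changes of -3.62 to -1.24 and a median of -1.78. Of all genes 35.0% were lower, and 10.9% by at least 2-fold. KIF20A, a mitotic kinesin, had 24.4, 35.2 and 26.7 CPM in the M1 libraries, against 365, 345 and 345 CPM in the Ctrl libraries. CDC20, an activator of the anaphase-promoting complex, fell to 76.8 ± 16.3 CPM in M1, against 528 ± 20.3 CPM in Ctrl and the kinase PLK1 to 49.8 ± 7.04 CPM in M1, against 313 ± 2.43 CPM in Ctrl. Of 36 DNA replication genes, 35 were lower, 29 by at least 2-fold, and 1 was higher, the cyclin gene CCNE1, with a median of -1.48. CCNE1 missed the threshold in 3 alternatives, without Ctrl replicate 1 among them (adjusted p = 0.121 there). TYMS, thymidylate synthase, had 30.6, 22.2 and 25.6 CPM in the M1 libraries, against 224, 242 and 255 CPM in the Ctrl libraries. POLD1, the catalytic subunit of DNA polymerase delta, fell to 9.29 ± 3.03 CPM in M1, against 72.3 ± 7.16 CPM in Ctrl, LIG1, a DNA ligase, to 15.99 ± 2.06 CPM in M1, against 95.6 ± 3.02 CPM in Ctrl and the transcription factor gene E2F2 to 4.22 ± 0.431 CPM in M1, against 21.9 ± 1.605 CPM in Ctrl. M1 and Ctrl values did not overlap in any of these 7 genes, as in 71.3% of all genes. The 3 largest changes of each list are among the 7, so nothing is read from it.

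Among CDK inhibitors and p53 targets, 15 of 21 were higher and 4 lower (median 0.35). The CDK inhibitor gene CDKN1A had 78.3, 72.5 and 75.7 CPM in the M1 libraries, against 2.90, 3.48 and 3.81 CPM in the Ctrl libraries. Another inhibitor, CDKN2C, moved the other way, with 5.33, 4.45 and 5.29 CPM in the M1 libraries, against 100.7, 88.5 and 92.2 CPM in the Ctrl libraries. The cyclin gene CCND2 rose to 125 ± 9.27 CPM in M1, against 14.3 ± 2.15 CPM in Ctrl, and MYC, a driver of growth, also rose (log2 1.23 ± 0.05 SE, adjusted p = 1.31e-10) within ribosome biogenesis, a list with 5 of 25 higher and 11 lower (median -0.11), where 35.2% of all genes were higher and 35.0% lower. Genes of the FOXO, glucocorticoid and quiescence list were higher in 12 of 14 and lower in 2, with TSC22D3, the glucocorticoid-induced leucine zipper, at 72.2 ± 1.58 CPM in M1, against 4.24 ± 0.499 CPM in Ctrl and TXNIP, an inhibitor of thioredoxin and glucose uptake, at 162 ± 23.2 CPM in M1, against 14.8 ± 1.69 CPM in Ctrl.

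Several housekeeping pathways had more genes lower than higher, where 35.2% of all genes were higher and 35.0% lower, and 10.9% lower by at least 2-fold. Of 27 respiratory chain genes tested 21 were lower and 0 higher (median -0.44), led by SDHA, a succinate dehydrogenase subunit (log2 -1.12 ± 0.06 SE, adjusted p = 4.55e-10), and 1 fell by at least 2-fold. Heat shock proteins were lower in 14 of 16, 7 of them by at least 2-fold (median -0.84), with HSPA1A at 8.01 ± 0.777 CPM in M1, against 31.5 ± 1.72 CPM in Ctrl, and only HSPA9, the mitochondrial HSP70, was higher. Of 26 genes of glycolysis and hypoxia 17 were lower, 4 by at least 2-fold, and 7 higher (median -0.33). CA9, carbonic anhydrase 9, had 8 reads in M1 and 75 in Ctrl, while the glucose transporter SLC2A3 (log2 2.15 ± 0.12 SE, adjusted p = 9.28e-09) and NDRG1 (log2 2.17 ± 0.11 SE, adjusted p = 1.85e-10) rose. Of 23 cholesterol synthesis genes 14 were lower, 8 by at least 2-fold, and 4 higher (median -0.54), with HSD17B7, a reductase of the pathway, at 0.714 ± 0.0908 CPM in M1, against 3.19 ± 0.268 CPM in Ctrl, and SQLE, squalene epoxidase, among those that rose (log2 0.52 ± 0.13 SE, adjusted p = 4.41e-05). Ribosomal protein genes had 15 of 40 lower, near the 35.0% of all genes, and 5 higher, none by 2-fold (median -0.11). The count lower is therefore no result about that list. The 5 that rose were 1 with no scaling beyond library totals.

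Lysosome and autophagy genes were higher in 12 of 20 and lower in 2 (median 0.42), where 35.2% of all genes were higher and 35.0% lower. The autophagy kinase ULK1 rose to 159 ± 27.5 CPM in M1, against 19.0 ± 1.72 CPM in Ctrl, GABARAPL1, a protein of the autophagosome membrane, to 19.7 ± 0.6502 CPM in M1, against 1.92 ± 0.208 CPM in Ctrl, and the cargo receptor SQSTM1 to 1747 ± 106 CPM in M1, against 252 ± 14.2 CPM in Ctrl. Of 16 NRF2 targets, which answer oxidative stress, 12 were higher and 1 lower, TKT (median 0.71), against the same shares of all genes. AKR1C1, an aldo-keto reductase gene among those switched on, had 231 reads in M1 and 12 in Ctrl, but near-identical AKR1C genes share reads.

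Genes of invasion and of the melanoma state are read against all genes (35.2% higher and 35.0% lower). For the dedifferentiated state and for collagens and matrix glycoproteins the shares called lay near these, so their counts are no result about these lists. Of 18 dedifferentiated state genes tested 4 were higher and 7 lower (median -0.16). The receptor tyrosine kinase gene AXL had 1177, 1298 and 1286 CPM in the M1 libraries, against 2888, 2225 and 2218 CPM in the Ctrl libraries. Ctrl replicate 1 stood apart from the other Ctrl libraries here, as it did across all genes, and the M1 values lay below all of them. The transcription factor gene SOX9 fell to 12.7 ± 1.34 CPM in M1, against 56.7 ± 7.09 CPM in Ctrl, while NRG1, a ligand of ERBB receptors, rose to 209.7 ± 22.2 CPM in M1, against 45.9 ± 5.67 CPM in Ctrl. MITF, the master regulator of pigment cells, was low in both groups and higher in M1, at 2.18 ± 0.2595 CPM in M1, against 1.17 ± 0.387 CPM in Ctrl. Among proteases and their inhibitors 11 of 18 were higher and 4 lower, with MMP1, interstitial collagenase, at 61.2 ± 4.97 CPM in M1, against 1.604 ± 0.1297 CPM in Ctrl. Among collagens and matrix glycoproteins 11 of 24 were higher and 8 lower, with SPARC, a collagen-binding glycoprotein, at 505 ± 24.6 CPM in M1, against 1659 ± 229.7 CPM in Ctrl.

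**Figure D4:**
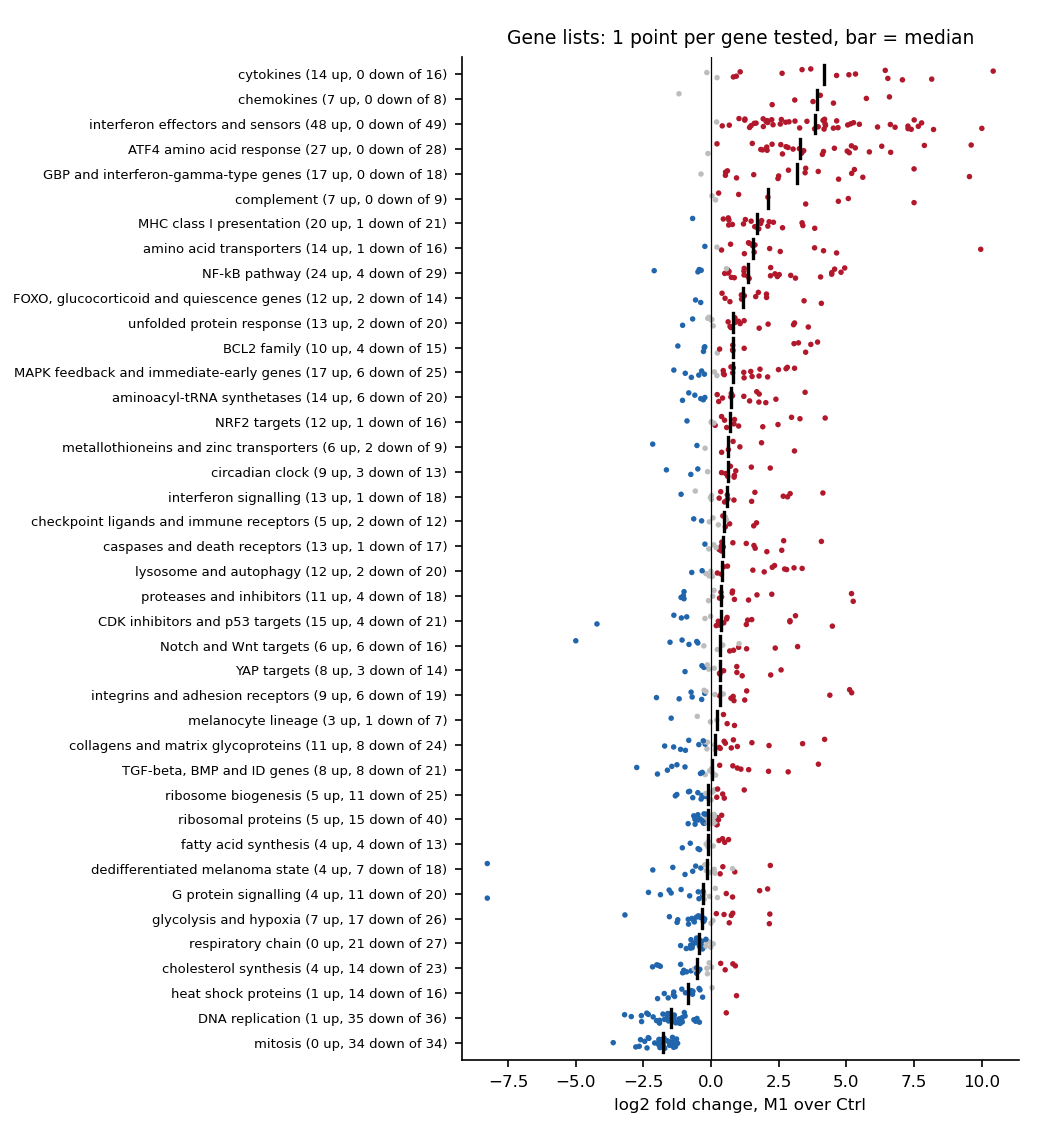
Log2 fold changes of M1 over Ctrl for the gene lists with at least 5 genes tested, sorted by their median (black bar), 1 point per gene, with red called higher, blue called lower and grey not called. Cytokines, chemokines, interferon effectors and ATF4 genes lie at the top, with medians of 3.31 to 4.16, and DNA replication and mitosis at the bottom, with medians of -1.48 and -1.78.

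The M1, M0 and M2 comparisons share the Ctrl libraries, so their fold changes are set side by side and the difference is tested as M1 against M0 and M1 against M2. Interferon effectors had medians of 3.83 in M1, 0.10 in M0 and 0.16 in M2, and 47 of 49 were called higher in M1 than in M0 and 45 higher than in M2. MHC class I genes had medians of 1.69, 0.26 and 0.16 in M1, M0 and M2, and all 21 tested were higher in M1 than in M0. NF-kB genes had medians of 1.35 in M1, 0.70 in M0 and 0.65 in M2, with 21 of 29 higher than M0 and 3 lower. Cytokines had medians of 4.16, 1.38 and 1.23 in M1, M0 and M2, with 13 of 16 higher than M0 and 13 higher than M2. Both counts include CSF2, which passed the filter through M1 alone. The background over all genes was 25.5% higher and 26.7% lower than M0, and 15.9% higher and 16.6% lower than M2.

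The ATF4 response did not follow that order. Its medians were 3.31 in M1, 3.34 in M0 and 3.38 in M2, and 5 of 28 genes were higher and 14 lower in M1 than in M0. CHAC1 stood at 68.2 CPM in M1, 84.8 CPM in M0 and 90.5 CPM in M2, against 0.675 CPM in Ctrl, and TRIB3, a pseudokinase induced by ATF4, was lower in M1 than in M0 by 0.96 on the log2 scale (adjusted p = 1.28e-07). Mitosis genes fell in all 3 media, with medians of -1.78 in M1, -0.73 in M0 and -1.48 in M2, and all 34 were lower in M1 than in M0 and 8 lower than in M2. Heat shock proteins had medians of -0.84, -0.89 and -0.998 in M1, M0 and M2. The unfolded protein response had medians of 0.81 in M1, 0.10 in M0 and 0.34 in M2, with 16 of 20 genes higher in M1 than in M0. Ribosomal proteins had medians of -0.11 in M1, 0.34 in M0 and 0.22 in M2, with 34 of 40 lower in M1 than in M0 and 26 lower than in M2.

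**Figure D5:**
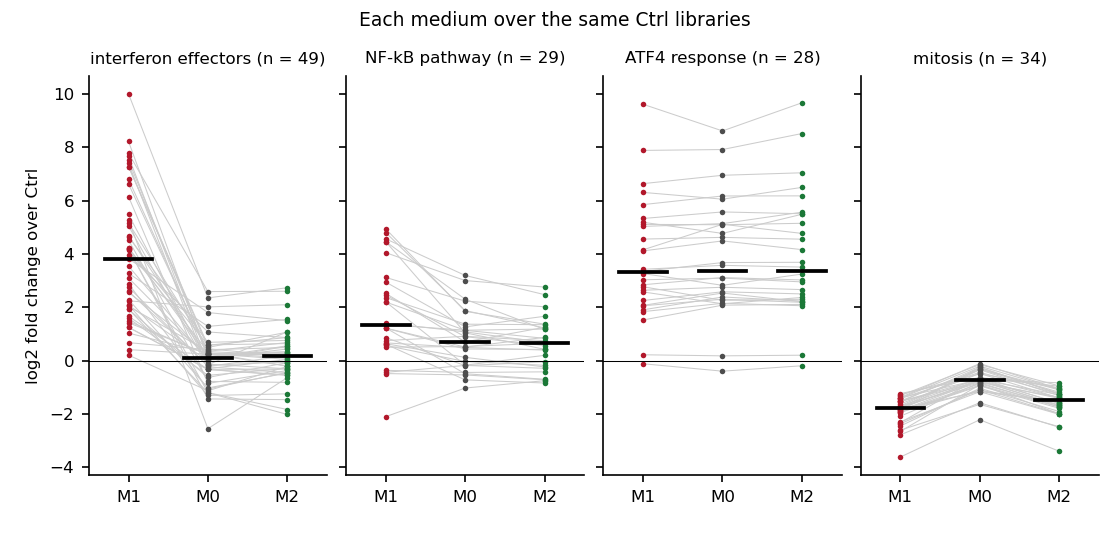
Log2 fold change over the same 3 Ctrl libraries in M1, M0 and M2 medium for 4 gene lists, with a grey line joining the values of a gene and a black bar at the median. Interferon effectors are high in M1 (median 3.83, against 0.10 in M0 and 0.16 in M2), ATF4 genes have medians of 3.31 in M1, 3.34 in M0 and 3.38 in M2, and mitosis genes have their lowest median in M1.

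Across all genes, 1373 were higher in M1 than in each of Ctrl, M0 and M2, and 1170 were lower than in each. The highest of the first set by the smallest of the 3 differences were GBP1P1, OAS1, IFI44L, CSF2, OAS2, MX2, TRIM22, GBP5, CTSS and SLC7A2. GBP1P1 had 0 reads in the 3 other groups, and CSF2 and SLC7A2 had 0 in Ctrl, so their places rest on fitted values against 0 reads. Those of the second set were TMSB15A, a thymosin that binds actin, APLN, PSCA, CAVIN2, CPA4 and the non-coding RNAs LINC00707, CASC8, LINC00460, LINC01111 and LINP1. A further 605 genes that M0 medium lowered and 588 that it raised were called the opposite way in M1 against M0 and were not called between M1 and Ctrl, which does not show that M1 and Ctrl were equal.

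Some of the largest changes lay next to each other on the chromosome. With genes ordered by start, 14 runs of at least 3 neighbouring protein-coding genes tested were all at least 4-fold higher, and 2 runs at least 4-fold lower. Coordinates are those of GENCODE release 29 on GRCh38. The CXCL8, CXCL1, CXCL5, CXCL3 and CXCL2 chemokine genes (chr4:73740506-74099293) were higher by log2 2.26 to 5.74, and next to them the growth factor genes EPGN, EREG, AREG and BTC (chr4:74308473-74794686) by 2.26 to 3.54. The guanylate-binding protein genes GBP1, GBP2, GBP4 and GBP5 (chr1:89052319-89272804) rose by 2.47 to 9.55, IFIT2, IFIT3 and IFIT1 (chr10:89283694-89406486) by 3.28 to 4.69, OAS1, OAS3 and OAS2 (chr12:112906777-113011723) by 4.18 to 8.22, and TYMP, ODF3B and KLHDC7B (chr22:50525752-50551023) by 4.18 to 11.40. On the lower side, HSD17B7, CCDC190 and RGS4 (chr1:162790702-163076802) had log2 fold changes of -2.16, -6.76 and -8.27. The other lower run was of 7 mitochondrial genes, and it rests on 1 library. Mitochondrial genes made up 0.00382%, 0.00323% and 0.00427% of reads in the M1 libraries, against 0.0357%, 0.00533% and 0.00468% in the Ctrl libraries. Without Ctrl replicate 1 the 7 log2 fold changes were -0.9964 to -0.2056, 5 of 7 were called and 0 were 4-fold lower. The higher runs of CASP4 and of TMEM268 each had 1 gene just under 4-fold with 1 M1 library left out. Members of a gene family can share reads, and reads of neighbours that overlap cannot be told apart.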

How the data were processed

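RNA of 12 MV3 samples was sequenced, and the M1 and Ctrl libraries are compared here. The deposited table holds raw read counts per gene; per the submitters' processing notes FastQC 0.11.7, Trimmomatic 0.36, Bowtie2 2.2.3, STAR 2.5.4b and DESeq2 1.20.0 were used with hg38, and per the labels' protocols a stranded kit was sequenced in 2 runs, which the table does not separate. The strand setting of the counting is not given in the sources used here; of 176 genes named, 55 overlap a gene on the other strand, and their reads may be mixed. A second table, of log2-scale variance-stabilized values deposited by the authors, served as an alternative only. Genes were annotated with GENCODE release 29.

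Counts were fitted with edgeR 4.0.16 (R 4.3.3): TMM scaling, filterByExpr with a minimum count of 10 and a minimum total of 15, and a quasi-likelihood test on all 12 libraries with group as the term, without a replicate block, and with Benjamini-Hochberg adjustment over 14088 genes at 0.05. The step was tested on simulated data in which far fewer genes changed than were called here. It therefore cannot test the scaling or the error rate under so broad a change. Fold changes are from that fit, and SE are from the spread of log2 CPM over replicates with a prior count of 2, a separate estimate. Intervals and floors cover counting error only. The 6 libraries held 28706025 to 42921242 reads. Alternatives were other scalings, no filter, DESeq2 1.42.0, limma 3.58.1, other thresholds, a block, and leaving out libraries.

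The members and the 42 gene lists were chosen with earlier results of these data known. Genes were named by rule. The 15 highest and 15 lowest fold changes were taken among called genes at 1 CPM or more whose M1 and Ctrl libraries did not overlap. The others were the 10 largest shifts in CPM each way, the 10 highest switched on and off, the 3 largest changes of each list with its exceptions, the 10 highest and 10 lowest against all other groups, and the 5 largest each way among genes that M0 moved oppositely. Another 42 were chosen after their values were seen, among them those of the runs and of the sets split by M0 and M2 level. Not all genes the rule names are given.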

Additional observations from a re-analysis of the deposited data

How the results depend on the processing

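The counts of called genes stayed within 1.5 times of those reported under other scalings, no filter, DESeq2, limma, the fit on 6 libraries and each library left out. With no scaling beyond library totals, 4388 were higher and 5539 lower, against 4961 and 4931. Leaving out 1 library gave 9400 to 9795 called genes, 4743 to 4938 higher and 4650 to 4859 lower, with 1794 to 1881 and 1495 to 1627 at 2-fold or more, 59 to 68 switched on and 12 to 16 switched off. A test against a fold of 2 (glmTreat) called 1170 genes higher and 894 lower. With a low limit of 0.1 CPM, 30 genes were switched on and 4 off, and with limits of 0.5 and 2 CPM 23 were switched off; the thresholds by construction set these counts. On library totals in place of TMM sizes, genes called higher held 50.88% in M1 and 30.6% in Ctrl, genes called lower 28.41% and 47.33%, genes 2-fold higher 16.42% in M1, and genes 2-fold lower 3.547% in M1 and 10.64% in Ctrl. The replicate block gave 9943 called genes, 4985 higher. In both groups 1 library stood apart across genes, by the chi-square per degree of freedom between the counts of 2 replicates. It was 20.3 and 25.6 for Ctrl replicate 1 against replicates 2 and 3, and 4.21 between those. For M1 replicate 2 it was 18.9 and 19.8 against replicates 1 and 3, and 4.34 between those. Same-numbered M1 and Ctrl libraries correlated at 0.056, 0.105 and 0.141 in their deviations, so the numbers were not taken as pairs, although each M1 library correlated best with its own number in Ctrl, a hint from the data only. Chosen after seeing the data, a fit without M0 replicate 3 and M2 replicate 2 called 9992. Of 42 list medians, 23 moved by more than the spread under some setting and 2 changed sign, for fatty acid synthesis and for the TGF-beta, BMP and ID genes, both near 0; the cause was not tested. Of 176 named genes 4 changed sides of the threshold, ATF5, CCNE1, ZC3HAV1 and CD33, and none changed sign. In the 150 bases before the start, the E2F element stood in 25% of DNA replication promoters, against 1.66% over all protein-coding genes tested. Depth limits statements on genes at 0 reads.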

Other observations

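Other signalling and regulatory gene lists are given as counts between M1 and Ctrl, to be read against 35.2% higher and 35.0% lower over all genes. Of 25 genes of MAPK feedback and immediate-early response 17 were higher and 6 lower (median log2 fold change 0.80), with the immediate-early genes EGR2 and EGR1 among the largest rises and the phosphatase gene DUSP4 and the transcription factor gene JUN among those that fell. Of 20 G protein signalling genes 4 were higher and 11 lower (median -0.30). Of 14 YAP targets 8 were higher and 3 lower (median 0.32), of 13 circadian clock genes 9 were higher and 3 lower (median 0.61), and of 15 BCL2 family genes 10 were higher and 4 lower (median 0.80). Shares near those of all genes were found for the TGF-beta, BMP and ID genes, with 8 of 21 higher and 8 lower, for Notch and Wnt targets, with 6 of 16 higher and 6 lower, and for fatty acid synthesis, with 4 of 13 higher and 4 lower. Of 19 integrins and adhesion receptors 9 were higher and 6 lower, and of 9 metallothionein and zinc transporter genes 6 were higher and 2 lower.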
